A study of Mus musculus with 4 samples.

Results

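The genes described here are 6 genes whose products build, brace or modify the thick filament of the cardiac sarcomere, namely Ttn, Mybpc3, Myl3, Myom1, Myom2 and Mylk3. They were taken by name as myosin-associated and M-band proteins, and all 6 were found among the 23337 gene symbols measured in each library. RNA-seq, which counts sequenced cDNA fragments per gene, was carried out on hearts of C57BL6/J mice of both sexes. The control mice (PIMT fl/fl) carry loxP-flanked alleles of Tgs1, the gene of PIMT, and no Cre is named for them. The csPIMT-/- mice carry the same floxed alleles together with a Cre transgene under the cardiac α-myosin heavy chain promoter, so deletion starts before birth and is limited to cardiomyocytes, while the other cells of the heart keep PIMT. Each genotype was studied at 2 and at 6 months of age, and in each of the 4 groups RNA of 5 hearts was pooled into 1 library. There were no replicate libraries, so no ratio at 1 age has a replicate check.

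In striated muscle the thick filament is a bundle of myosin molecules whose heads pull on actin. Titin runs from the Z-disc at the edge of the sarcomere to the M-band at its centre, acts as a spring, and holds the thick filament in place, while myomesins tie titin and myosin together at the M-band. Myosin light chains stiffen the lever arm of the myosin head, cardiac myosin-binding protein C restrains the heads along the filament, and cardiac myosin light chain kinase phosphorylates the regulatory light chain.

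The deposited values were normalized counts, that is reads per gene divided by 1 factor per library. Whole reads could be recovered from them, and reads on genes numbered between 29823073 (csPIMT-/-, 2 months) and 40705783 (control, 6 months), with 17169 to 17349 genes detected. Intervals are 95% Clopper-Pearson intervals that cover counting error only, except where a limma interval is named. The targeted gene Tgs1 had 580 normalized counts in the control library of 2 months and 816 in that of 6 months, against 160 and 162 in the csPIMT-/- libraries. The ratio of csPIMT-/- over control was 0.276 (0.227 to 0.334) at 2 months and 0.199 (0.167 to 0.236) at 6 months, counted over the whole gene and not over the deleted exons alone. Of the cell type markers, the summed level of 7 ventricular cardiomyocyte genes (Myh6, Myl2, Tnni3, Tnnt2, Actc1, Pln and Ryr2) differed by a ratio of 0.965 at 2 months and 0.768 at 6 months, and none of the 7 was at 0 in any library. Its members did not move together, with Pln at ratios of 0.389 and 0.257, Ryr2 at 0.608 and 0.538 and Tnni3 at 1.49 and 1.18. The sum of 5 atrial markers (Myl4, Myl7, Sln, Nppa and Bmp10) was 40742 normalized counts in the control library of 2 months, 121253 in that of 6 months, and 334131 and 349424 in the csPIMT-/- libraries of 2 and 6 months. Nppa, which the paper used as an indicator of heart failure, made up 38182 and 70659 of the sums of the 2 controls. The other atrial markers differed more between the controls of 2 and 6 months. They were at 1379 and 23002 for Myl4, 1045 and 17299 for Myl7, 130 and 3996 for Sln and 5.19 and 6296 for Bmp10. At 2 months 5 of the 5 had a ratio over 2, from 5.27 for Nppa to 1650 for Bmp10. At 6 months 1 did (Nppa, 320296 of the 349424) and 3 were under 0.5 (Myl7, Sln and Bmp10). Summed markers of brown fat were 1906, 1902, 7741 and 3046 in the same order, of which Cidea made up most in all but the csPIMT-/- library of 2 months. At 2 months Ucp1 was at 8.65 in control and 1766 in csPIMT-/-, a ratio of 204. Adipoq was at 5.19 in control and 1830 in csPIMT-/- (ratio 352), and Plin1 at 3.46 and 1586 (ratio 458). The control library of 6 months had 93.2 for Ucp1, 453 for Adipoq and 341 for Plin1. At that age these genes were lower in csPIMT-/- than in control, with ratios of 0.134, 0.657 and 0.399. Summed lung markers were 1.73, 9.67, 190 and 10.4, and those of skeletal muscle 705, 220, 371 and 563, with 2 of 9 skeletal markers over 2 and 3 under 0.5 at 2 months, 7 over 2 and 1 under 0.5 at 6 months, and Tnnc2 at 0 in both controls. Ratios of the summed markers at 2 and 6 months were 0.712 and 1.40 for fibroblasts and 0.674 and 1.10 for endothelium. They were 1.25 and 0.759 for smooth muscle, with 3 of 4 markers over 2 at 2 months and 0 at 6 months. For leukocytes they were 1.60 and 0.910, with members on both sides of 1 (Ptprc 0.533 and 0.443, Cd68 4.05 and 2.16). The part of all these marker differences in the results below was not tested. In whole heart, fewer cardiomyocytes and less RNA per cardiomyocyte cannot be told apart.

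Ttn, which encodes titin, was the most abundant gene by reads in all 4 libraries. It was read at 1868823 normalized counts in the control library of 2 months, 2448081 in the control library of 6 months, 1069321 in the csPIMT-/- library of 2 months and 713324 in that of 6 months. Both csPIMT-/- values were below both control values, and the library of the older csPIMT-/- mice was the lowest of the 4. The ratio of csPIMT-/- over control was 0.572 (0.571 to 0.574) at 2 months and 0.291 (0.291 to 0.292) at 6 months. From 2 to 6 months the controls differed by a ratio of 1.31 and the csPIMT-/- libraries by 0.667, so the ages were ordered in opposite ways in the 2 genotypes. Ttn took 5.42% and 6.84% of all reads on genes in the controls and 2.91% and 1.90% in the csPIMT-/- libraries. The gene lies at chr2:76703980-76982547 on the minus strand (GRCm38), with a longest transcript of 106824 bases, the second longest of all genes compared. Its isoforms were counted together, so the stiff and the compliant forms of titin could not be separated.

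The 250 bases before the RefSeq start of Ttn (chr2:76982548-76982797, minus strand, GRCm38.p6) are shown because this gene had the lowest ratio of the 6, and capitals mark a match to the MEF2 motif, bound by a family of muscle transcription factors, 166 bases before the start.
Ttn promoter: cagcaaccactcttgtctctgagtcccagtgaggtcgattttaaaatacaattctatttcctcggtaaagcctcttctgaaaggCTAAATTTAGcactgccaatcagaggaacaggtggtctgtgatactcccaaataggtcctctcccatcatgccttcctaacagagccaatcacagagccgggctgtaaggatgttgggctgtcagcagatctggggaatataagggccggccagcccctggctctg
Such a match was present on 1 of the strands in 2.92% of the 32851 promoters of the same length in the RefSeq table.

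Mybpc3, which encodes cardiac myosin-binding protein C, differed between the genotypes in the opposite direction. Its normalized counts at 2 months were 146453 in the control and 297319 in the csPIMT-/- library, and at 6 months 185599 and 360848. Both csPIMT-/- values were above both control values, and within each genotype the older library was the higher. The ratio of csPIMT-/- over control was 2.03 (2.02 to 2.04) at 2 months and 1.94 (1.93 to 1.95) at 6 months. The ratio of 6 over 2 months was 1.27 in the controls and 1.21 in the csPIMT-/- libraries. The gene lies at chr2:91118144-91136516 on the plus strand and has a longest transcript of 4163 bases.

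The promoter of Mybpc3 (chr2:91117894-91118143, plus strand, GRCm38.p6) is shown for comparison with that of Ttn, since both hold a MEF2 match while the genes had the most distant ratios of the 6. Its match, in capitals, is 90 bases before the start.
Mybpc3 promoter: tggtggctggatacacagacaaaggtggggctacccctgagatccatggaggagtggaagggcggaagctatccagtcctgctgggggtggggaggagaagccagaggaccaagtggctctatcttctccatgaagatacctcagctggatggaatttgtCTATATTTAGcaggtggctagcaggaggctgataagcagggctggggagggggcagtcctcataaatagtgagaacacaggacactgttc
A match describes the letters and is not a binding site.

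A ratio of 2 genes within 1 library does not depend on the scaling between libraries. Against 100 reads of Ttn, the controls had 7.84 (7.80 to 7.88) reads of Mybpc3 at 2 months and 7.58 (7.55 to 7.62) at 6 months. The csPIMT-/- libraries had 27.8 (27.7 to 27.9) and 50.6 (50.4 to 50.8). The controls of the 2 ages thus lay close together, and both csPIMT-/- libraries lay above them. The pair differs in GC content, with which ratios moved across all genes, and with the GC trend described below subtracted the contrast of csPIMT-/- over control in this pair was 1.76 in place of 3.55 at 2 months and 3.25 in place of 6.67 at 6 months. The pair also differs in transcript length, with which ratios fell across genes (Spearman's rho -0.307 at 2 months and -0.237 at 6 months). With both trends subtracted the ratios were 1.35 and 1.28 for Mybpc3 and 0.935 and 0.457 for Ttn, whose length is at the edge of that trend.

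Myl3 encodes the ventricular essential light chain of myosin. It was read at 101979 (control) and 145876 (csPIMT-/-) normalized counts at 2 months and at 88861 and 127299 at 6 months. Both csPIMT-/- values were above both controls, and the younger library was the higher in each genotype. The ratio of csPIMT-/- over control was 1.43 at both ages (1.42 to 1.44 at each), and the ratio of 6 over 2 months was 0.871 in the controls and 0.873 in the csPIMT-/- libraries. The share of Myl3 among reads of Myl3 and Myl4, the atrial essential light chain, was 98.7% in the control library of 2 months, 79.4% in that of 6 months, 67.9% in the csPIMT-/- library of 2 months and 87.4% in that of 6 months. This share did not order the libraries by genotype, and Myl4 itself is among the atrial markers that differed between the libraries. The gene lies at chr9:110741861-110769798 on the plus strand, and 95 bases of its exons are shared with Pth1r on the opposite strand.

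Mylk3 encodes the cardiac myosin light chain kinase. Its normalized counts at 2 months were 30453 in the control and 24830 in the csPIMT-/- library, and at 6 months 36010 and 21597. Both csPIMT-/- values were below both controls. The ratio of csPIMT-/- over control was 0.815 (0.801 to 0.830) at 2 months and 0.60 (0.590 to 0.610) at 6 months. As for Ttn, the older library was the higher in the controls, with a ratio of 1.18, and the lower in the csPIMT-/- mice, with a ratio of 0.870. The substrate of this kinase, the ventricular regulatory light chain Myl2, was at 83678 and 78008 normalized counts in the controls and at 115972 and 72191 in the csPIMT-/- libraries, which gave a ratio of 1.39 at 2 months and 0.925 at 6 months. Mylk3 lies at chr8:85324303-85386345 on the minus strand.

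Myom1 and Myom2 encode the myomesins, which cross-link thick filaments at the M-band. Myom1 was read at 72545 (control) and 44100 (csPIMT-/-) normalized counts at 2 months and at 68502 and 54939 at 6 months. Myom2 was read at 47909 (control) and 66541 (csPIMT-/-) at 2 months and at 65498 and 72165 at 6 months. Myom1 was lower in both csPIMT-/- libraries than in both controls, and Myom2 was higher. The ratio of csPIMT-/- over control of Myom1 was 0.608 (0.60 to 0.615) at 2 months and 0.802 (0.793 to 0.811) at 6 months. For Myom2 it was 1.39 (1.37 to 1.41) at 2 months and 1.10 (1.09 to 1.11) at 6 months. At 6 months the Myom2 ratio was smaller than the ratio of 1.37 between the controls of the 2 ages, and the csPIMT-/- library of 2 months was above the control of 6 months by a ratio of 1.02. Within libraries, and without scaling to length, the reads of Myom2 per read of Myom1 were 0.660 (0.653 to 0.668) and 0.956 (0.947 to 0.966) in the controls and 1.51 (1.49 to 1.53) and 1.31 (1.30 to 1.33) in the csPIMT-/- libraries. Both csPIMT-/- libraries were thus above both controls in this quantity, which sets the libraries apart but does not order the levels of the 2 genes. Myom1 lies at chr17:71002633-71126856 and Myom2 at chr8:15057653-15133541, both on the plus strand, and 207 bases of Myom1 exons are shared with Myl12a on the opposite strand.

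**Figure D1:**
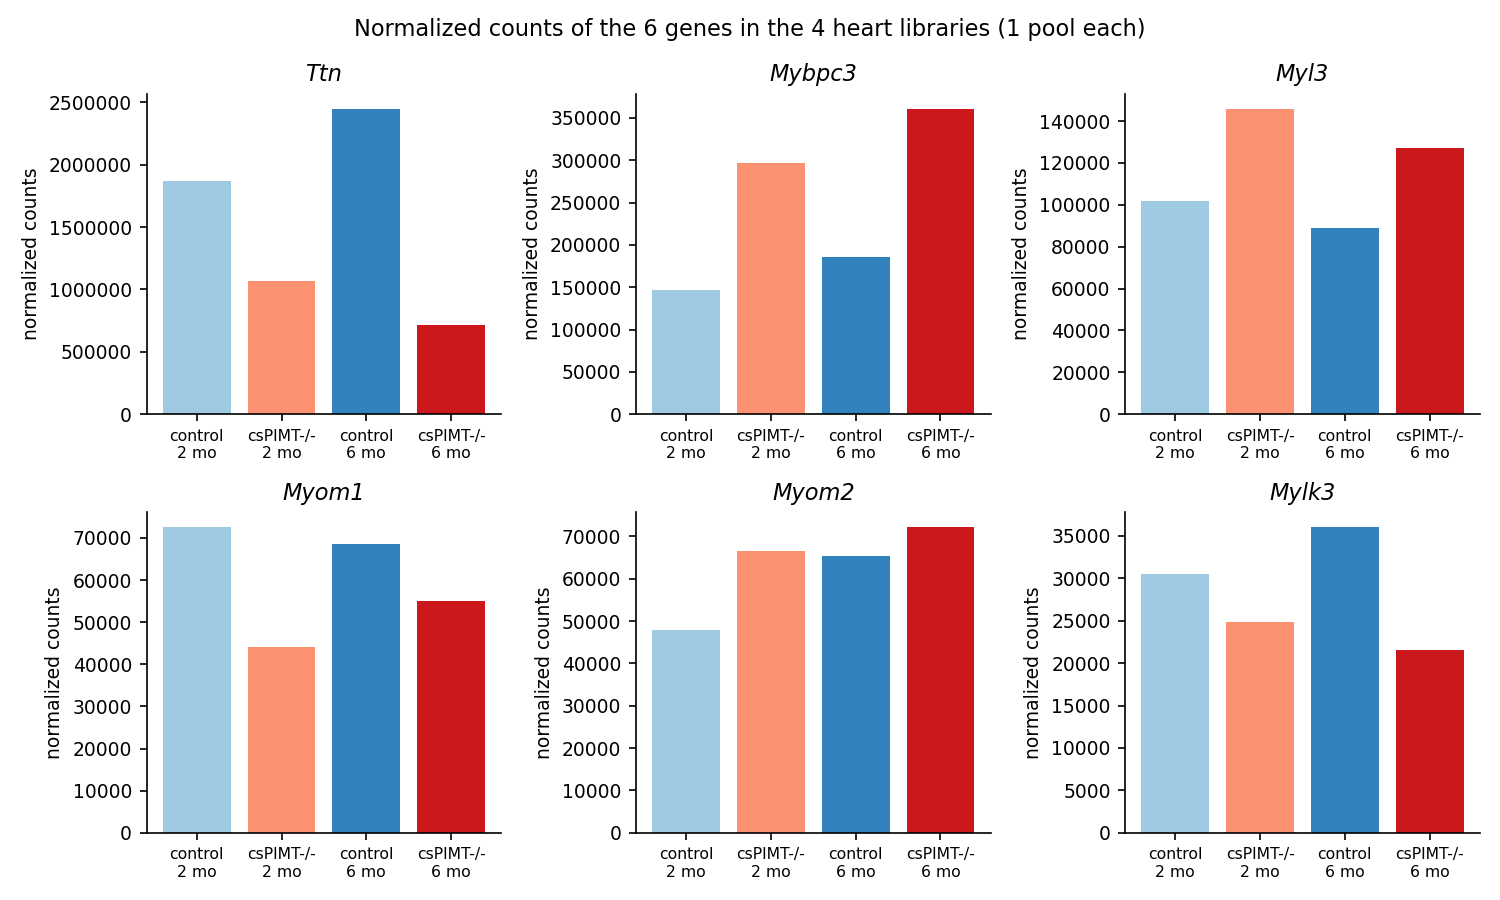
Normalized counts (y axes, from 0) of the 6 genes in the 4 heart libraries (x axes), with 1 bar per library and no error bars since each group is 1 pool. Both csPIMT-/- bars are below both control bars for Ttn, Myom1 and Mylk3 and above them for Mybpc3, Myl3 and Myom2.

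**Figure D2:**
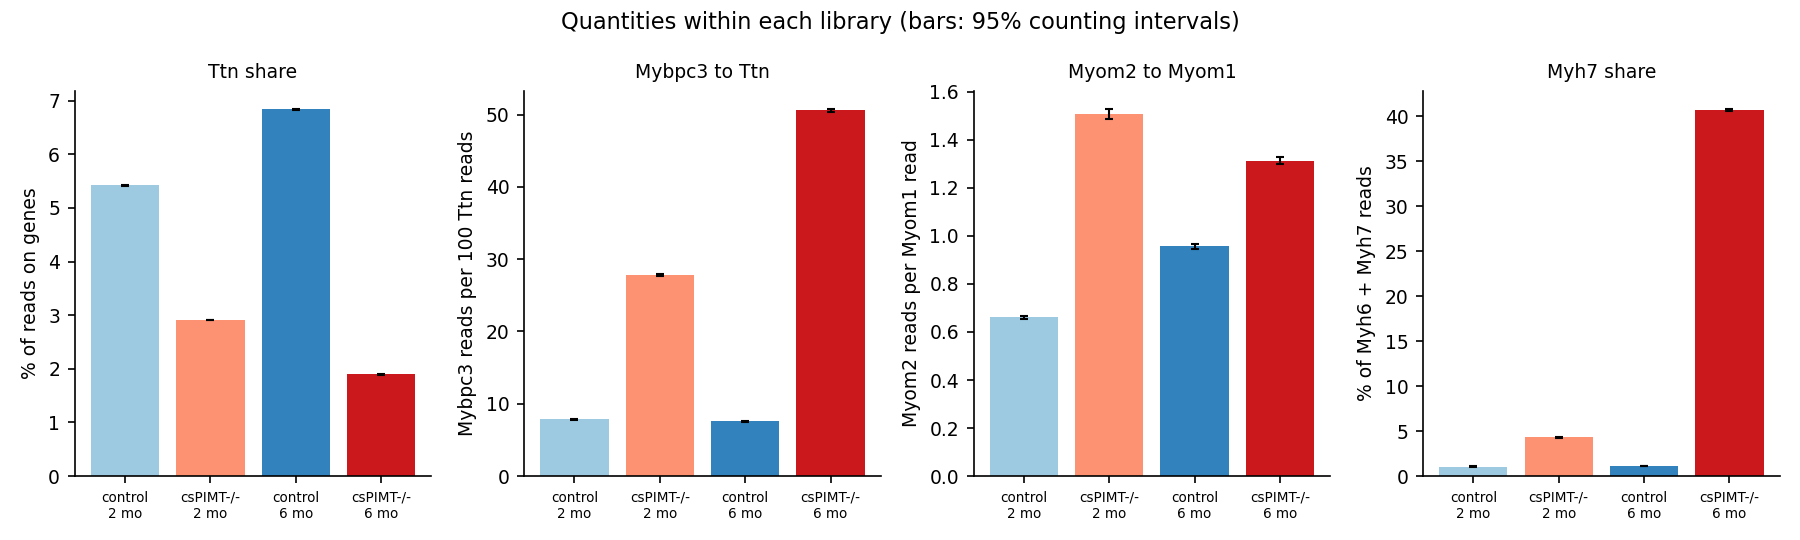
Quantities taken within each library (y axes, from 0), with error bars for the 95% counting interval. From left to right are the share of Ttn in reads on genes, the reads of Mybpc3 per 100 reads of Ttn, the reads of Myom2 per read of Myom1, and the share of Myh7 in reads of Myh6 and Myh7, which was 40.7% in the csPIMT-/- library of 6 months and 4.31% or less in the others.

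The promoters of Myl3 (chr9:110763428-110763677) and Myom1 (chr17:71019307-71019556), both on the plus strand and taken before a RefSeq start that lies within the GENCODE gene, are shown because both hold a CArG box, the motif of serum response factor, although the 2 genes were on opposite sides of the controls. Capitals mark this match, 85 bases before the start of Myl3 and 99 before that of Myom1, and also matches to the TEAD motif CATTCC and the GATA motif AGATAA or their reverse complements.
Myl3 promoter: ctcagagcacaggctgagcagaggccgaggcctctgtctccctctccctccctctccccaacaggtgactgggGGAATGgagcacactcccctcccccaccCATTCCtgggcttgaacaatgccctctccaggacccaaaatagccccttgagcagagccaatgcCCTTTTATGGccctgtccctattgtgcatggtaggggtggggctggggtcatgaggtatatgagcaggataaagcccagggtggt
Myom1 promoter: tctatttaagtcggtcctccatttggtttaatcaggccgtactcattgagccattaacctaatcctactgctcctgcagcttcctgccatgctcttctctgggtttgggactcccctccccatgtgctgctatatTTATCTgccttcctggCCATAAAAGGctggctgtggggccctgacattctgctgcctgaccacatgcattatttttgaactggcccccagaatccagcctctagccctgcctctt
On either strand the CArG box was matched in 1.47% of the 32851 promoters, CATTCC in 12.6% and AGATAA in 9.99%. Of the 2 RefSeq starts of Mylk3, the promoter of 1 held AGATAA at 100 and at 50 bases before the start, and that of the other held CATTCC, in reverse, at 148. TATAAA, present in 12.4% of all promoters, was not found in these windows. The promoters were matched for 5 of the 6 genes, the exception being Myom2, and the motifs were chosen with these sequences in view.

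Set side by side, 3 of the 6 genes (Mybpc3, Myl3 and Myom2) were above and 3 (Ttn, Myom1 and Mylk3) below both controls in both csPIMT-/- libraries. Over all 14847 genes with sufficient reads, 71.1% had both csPIMT-/- values on 1 side of both controls, with 35.2% above and 35.9% below, so values set apart in this way were common in these libraries. Past 2-fold was 1 of the 6 genes at 2 months (Mybpc3), against 39.7% of 15152 genes, and 1 of the 6 at 6 months (Ttn), against 41.9% of 15218. Ratios over 2 made up 17.3% of genes at 2 months and ratios under 0.5 made up 24.9% at 6 months. The median ratio of the 6 genes was 1.10 at 2 months and 0.952 at 6 months, beside 0.997 and 1.0 over all genes, where 49.9% and 50.1% of genes had a ratio over 1. For comparison, 13.7% of genes were past 2-fold between the controls of the 2 ages and 17.9% between the csPIMT-/- libraries of the 2 ages.

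The difference between the genotypes over both ages was tested with limma across all genes, with age in the model. This fit has 1 residual degree of freedom, so its error rests mostly on the spread borrowed across genes. None of the 6 genes passed an adjusted p of 0.05 in limma after Benjamini-Hochberg adjustment, while 17.5% of the 14847 genes were called lower and 11% higher in csPIMT-/- hearts. At an unadjusted p below 0.05 there was 1 of the 6, beside 6729 of the 14847 genes (45.3%). This was Mybpc3, with a log2 difference of 0.99 (SE 0.33, limma 95% interval 0.14 to 1.84), an unadjusted p of 0.0308 and an adjusted p of 0.0796 in limma. For Ttn the log2 difference was -1.29 (SE 0.57, interval -2.76 to 0.17), with an adjusted p of 0.144 in limma.

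The other members had smaller log2 differences in limma, of 0.52 (SE 0.28) for Myl3, -0.52 (SE 0.26) for Myom1, -0.52 (SE 0.24) for Mylk3 and 0.31 (SE 0.26) for Myom2, with adjusted p between 0.160 and 0.401 in limma. On the recovered reads, edgeR's quasi-likelihood test called Mybpc3 higher, with an adjusted p of 0.0468, and no other member, where Ttn had an adjusted p of 0.0623 in edgeR. DESeq2's Wald test called Mybpc3 higher (adjusted p = 0.00295) and Ttn lower (adjusted p = 0.000774), where 15% of the genes it tested were called higher and 20.5% lower. The tools called 28.5% (limma), 28% (edgeR) and 35.6% (DESeq2) of the genes they tested. For Tgs1 the limma log2 difference was -2.09 (SE 0.31), with an adjusted p of 0.0184.

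Base composition moved with the genotype ratio across all genes. Spearman's rho between the log2 ratio of csPIMT-/- over control and the GC content of the longest transcript was 0.581 over 13748 genes at 2 months and 0.607 over 13787 genes at 6 months, as a description across genes that share the same libraries, and between the controls of the 2 ages it was -0.261. Of the 6 genes, Ttn had the lowest GC content, at 47.4%, and Mybpc3 the highest, at 56.5%, with the other 4 between 50.4% and 51.8%. The extremes of GC content among the 6 were thus the genes past 2-fold. The trend at the GC content of Mybpc3 was a ratio of 1.57 at 2 months and 1.59 at 6 months, and at that of Ttn 0.783 and 0.776.

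With the trend subtracted, the ratio of Mybpc3 was 1.29 at 2 months and 1.22 at 6 months, and its limma adjusted p was 0.518. The ratio of Ttn was 0.731 and 0.376, and with a trend on transcript length also subtracted it was 0.935 at 2 months and 0.457 at 6 months. Ttn at 6 months was thus the only ratio of the 6 genes that stayed past 2-fold under both subtractions. Ttn lies at the upper end of the transcript lengths, where the length trend is least certain. Myom1 and Mylk3 lay below the trend, with ratios of 0.567 and 0.709 for Myom1 and of 0.789 and 0.551 for Mylk3 at 2 and 6 months after the GC subtraction. The ratios of Myl3 were then 1.25 and 1.18, but its longest transcript retains an intron, and with the GC content of its longest coding transcript (55.4% in place of 51.5%) they were 0.952 and 0.94. For Myom2 they were 1.18 at 2 months and 0.880 at 6 months, so the direction at 6 months was not the same with and without the trend. The same subtraction took the ratio of Tgs1 to 0.599 and 0.492, and no gene was called by limma after it, which left 3492 of 13469 genes at an unadjusted p below 0.05 and 0 of the 6.

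**Figure D3:**
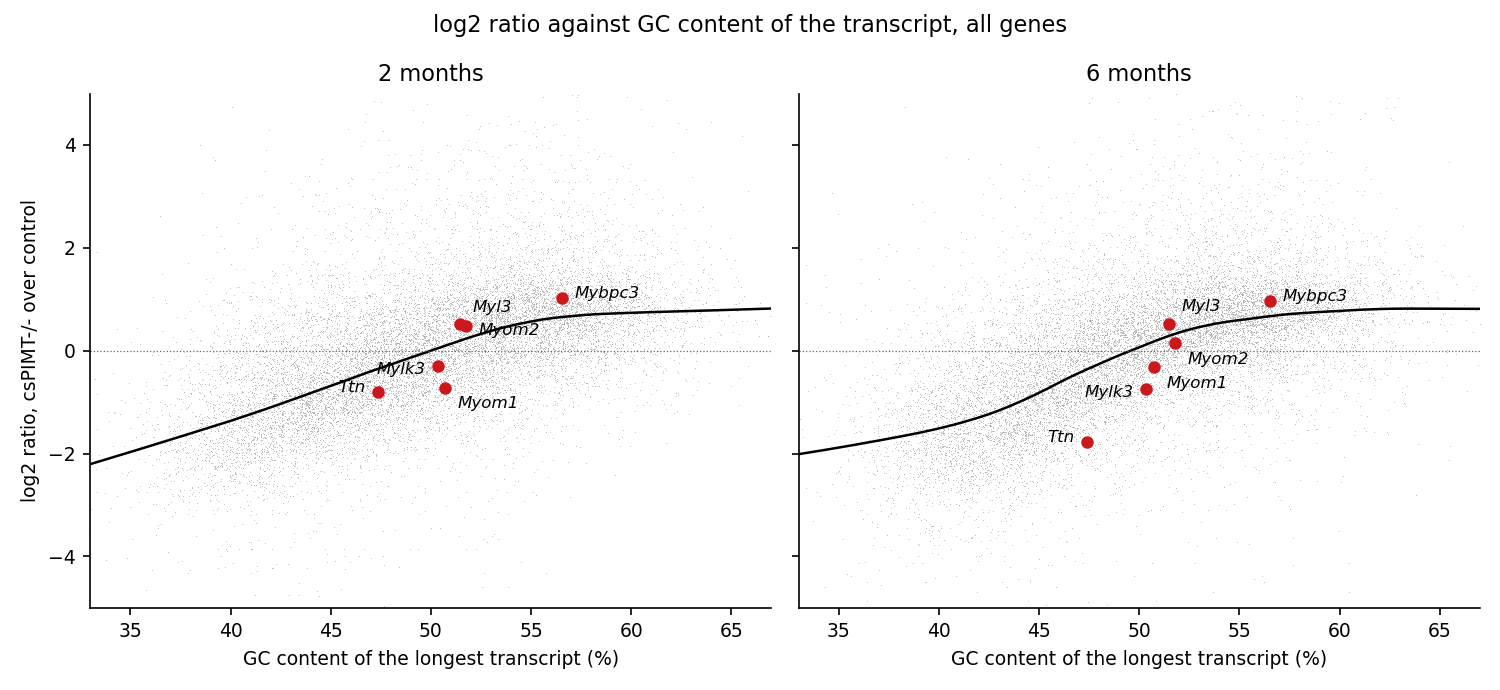
log2 ratio of csPIMT-/- over control (y axes) against the GC content of the longest transcript (x axes, in %) at 2 months (left) and 6 months (right), with 1 grey point per gene, the lowess trend as a line and the 6 genes in red. Mybpc3, at 56.5% GC, lies above the trend by 0.37 at 2 months and 0.29 at 6 months on the log2 scale. Ttn at 6 months lies below it by 1.41.

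**Figure D4:**
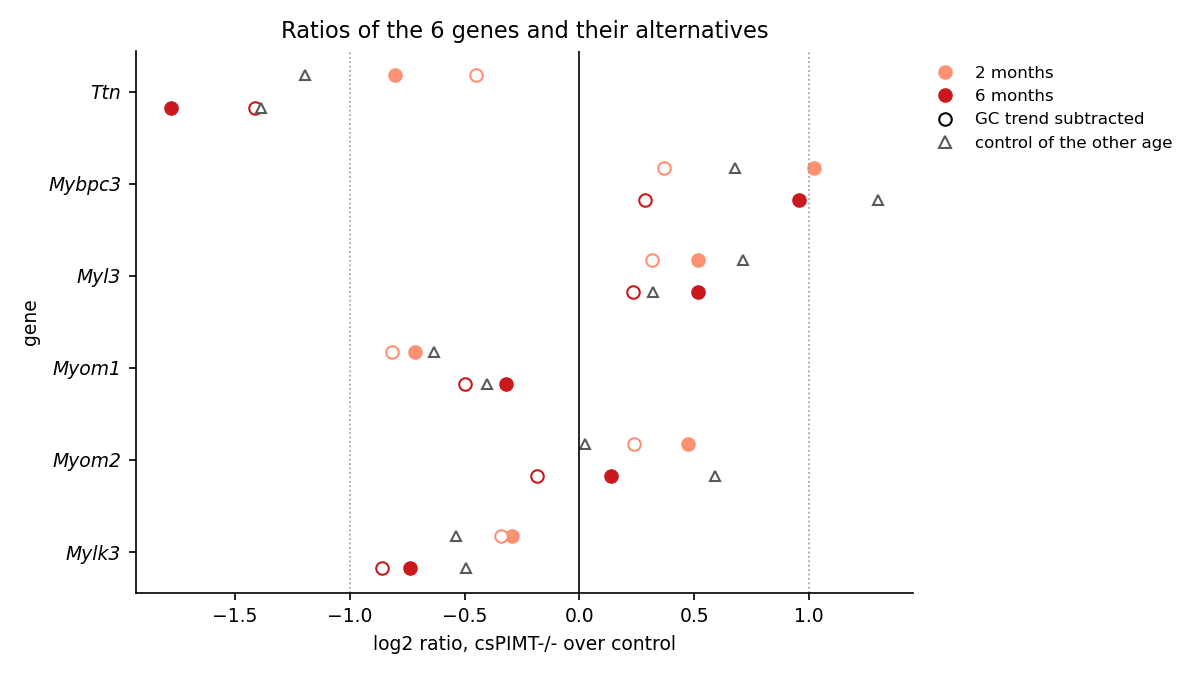
log2 ratios of the 6 genes (x axis) at 2 months (light) and 6 months (dark), as filled points against the control of the same age, as open circles after the GC trend was subtracted and as triangles against the control of the other age. Dotted lines mark 2-fold. The Ttn points of 6 months are below -1 in all 3 forms, and the Myom2 points of 6 months lie on both sides of 0.

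Levels can be compared between genes only per length, and were given as RPKM, that is reads scaled to the length of the longest transcript and to all reads on genes. On this scale Myl3 was the highest of the 6 in every library, at 2206 to 3527, and Mybpc3 followed at 1020 to 2303. Mylk3 was the lowest in every library, at 155 to 272. Ttn came next after these in both controls, at 507 and 640, and was at 272 and 177 in the csPIMT-/- libraries of 2 and 6 months, below Myom2 in both and below Myom1 as well in the older. Myom2 was at 357 and 378 in the csPIMT-/- libraries and at 274 and 361 in the controls. Myom1 was at 372 and 339 in the controls and at 212 and 258 in the csPIMT-/- libraries. The order of Ttn, Myom1 and Myom2 was therefore not the same in the genotypes, but Myom1 and Myom2 in the control library of 6 months (339 and 361) lay closer together than did the controls of the 2 ages for Myom2. Values per length depended on the transcript taken as the length, most of all for Ttn, whose annotated transcripts have a median length of 2093 bases.

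By Euclidean distance between log2 profiles over the 4 libraries, each centred on its own mean, the nearest of 10828 other genes were Mtss1 and Ank2 for Ttn, at distances of 0.0362 and 0.0551. Mtss1 had ratios of 0.558 at 2 months and 0.285 at 6 months, and Ank2 of 0.545 and 0.291. For Mybpc3 the nearest were Ogg1 and Ascc2, for Myl3 1300018I17Rik and Ppp2r1a, for Myom1 Eif2c1 and C1qtnf9, for Myom2 Nek9 and Dnajc12, and for Mylk3 Glod4 and Gigyf2. Such profiles were common, since 562 genes lay within 0.5 of Ttn on this scale and 1476 to 2593 within 0.5 of each of the other 5.

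The pathway around the 6 genes was described with 39 further genes of the thick filament, the M-band and the partners of titin. Of these, 12 had a ratio over 2 and 3 under 0.5 among 38 with sufficient reads at 2 months, and 9 over 2 and 7 under 0.5 among 37 at 6 months, that is 39.5% and 43.2% past 2-fold, beside 39.7% and 41.9% of all genes. Their median ratio was 1.34 at 2 months and 0.925 at 6 months. Those over 2 at 2 months included the atrial markers Myl4 (49.9) and Myl7 (41.0), and Mybphl (84.2). At 6 months the ratios of these were 0.795, 0.467 and 0.468. The part of the atrial marker difference between libraries in these counts and medians was not tested. In limma, 9 of 37 rose and 4 fell in csPIMT-/- hearts at an adjusted p below 0.05, and after the GC trend was subtracted none was called (13 of 37 at an unadjusted p below 0.05), while edgeR called 10 higher and 4 lower and DESeq2 11 and 5. Beside these counts, limma called 11% of all genes higher and 17.5% lower, edgeR 11% and 17%, DESeq2 15% and 20.5%, and 25.9% of all genes were at an unadjusted p below 0.05 after the GC trend was subtracted.

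Among the myosin heavy chains, Myh6, the adult form of the mouse ventricle, was at 672043 and 587914 normalized counts in the controls and 667583 and 452317 in the csPIMT-/- libraries, with ratios of 0.993 and 0.769. Myh7, the slow form that predominates before birth, was at 7204 and 6589 in the controls and at 30098 and 310924 in the csPIMT-/- libraries. Its ratios were 4.18 (4.08 to 4.28) and 47.2 (46.1 to 48.3), and it rose in limma with a log2 difference of 3.81 (SE 0.81, adjusted p = 0.0306). After the GC trend was subtracted, the ratios of Myh7 were 2.68 and 30.0. The share of Myh7 in reads of both was 1.06% and 1.11% in the controls, 4.31% in the csPIMT-/- library of 2 months and 40.7% in that of 6 months, where the near identity of the 2 genes leaves the division of reads uncertain. Mybpc2, the fast skeletal relative of Mybpc3, also rose, with ratios of 2.50 and 4.18 (1.70 and 2.78 after the GC trend was subtracted). Its log2 difference in limma was 1.69 (SE 0.26, adjusted p = 0.0187). The summed skeletal muscle markers had a ratio of 0.526 at 2 months and 2.56 at 6 months, and their part in this result and in that of Mylk2 was not tested.

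At the M-band, Lrrc39, whose product binds myosin heavy chain there, fell, with 3924 and 4730 normalized counts in the controls and 552 and 327 in the csPIMT-/- libraries. Its ratios were 0.141 and 0.0691, the lowest among the named genes, and 0.291 and 0.164 after the GC trend was subtracted. Trim54, a ubiquitin ligase of the sarcomere, rose with ratios of 5.28 and 3.37, and Sqstm1, an autophagy adaptor that joins the signalling complex at the titin kinase, with ratios of 3.09 and 3.15. After the GC trend was subtracted, the ratios were 3.18 and 1.97 for Trim54 and 2.20 and 2.16 for Sqstm1. The M-band gene Myom3 had ratios of 1.34 and 1.60 and did not pass limma (adjusted p = 0.251). Neither myomesin of the 6 genes nor Myom3 was therefore called by limma, in contrast to Lrrc39, and the difference between these genes was not itself tested.

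Of the ankyrin repeat proteins that bind the spring region of titin, Ankrd23 was at 7995 and 8534 normalized counts in the controls and 19189 and 80073 in the csPIMT-/- libraries, with ratios of 2.40 and 9.38, and it rose in limma (adjusted p = 0.0315). Ankrd2 was read once in the control library of 2 months and 17 times in that of 6 months, against 143 and 680 reads in the csPIMT-/- libraries, and rose in limma (adjusted p = 0.0163). Its ratio was 47.3 (29.3 to 81.7) at 6 months, and at 2 months 204, with a counting interval of 36.0 to 8103. After the GC trend was subtracted, the ratios were 1.55 and 6.02 for Ankrd23 and 84.6 and 28.1 for Ankrd2. On the side of the light chain phosphatase, which acts against the kinase, the catalytic subunit gene Ppp1cb and the targeting subunit gene Ppp1r12a fell, with ratios of 0.181 and 0.307 for Ppp1cb and of 0.374 and 0.383 for Ppp1r12a. Both have a low GC content, of 40.8% and 39.9%, and after the trend was subtracted the ratios were 0.435 and 0.830 for Ppp1cb and 0.971 and 1.10 for Ppp1r12a, the last on the other side of 1.

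The other genes called by limma are named here because the count of calls is small, and were chosen after their values were seen. They were Alpk3, Ankrd1 and Mylk2, which rose by log2 differences of 1.08, 0.96 and 3.32, and Hsp90aa1, which fell by 0.88 on the log2 scale. After the GC trend was subtracted, the ratios at 2 and 6 months were 1.09 and 1.58 for Alpk3 and 2.16 and 2.58 for Ankrd1. For Mylk2 they were 5.98 and 8.27, and for Hsp90aa1 0.972 and 1.14, the last on the other side of 1. Mylk2, the skeletal light chain kinase, had only 3 and 5 reads in the controls and 23 and 62 in the csPIMT-/- libraries, against at least 20139 reads of Mylk3 in every library. The other listed kinases were lower in csPIMT-/- at both ages and did not pass limma. Mylk4 had 2721 and 4110 reads in the controls, and its ratios were 0.648 and 0.142 (limma adjusted p = 0.0666). After the GC trend was subtracted these were 1.07 and 0.259. The ratios of Mylk were 0.883 and 0.728 (limma adjusted p = 0.301). For Rbm20, also outside the rule for named genes and a splicing factor that sets the isoforms of titin, the ratios were 0.721 and 0.646, and it did not pass limma (adjusted p = 0.101).

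**Figure D5:**
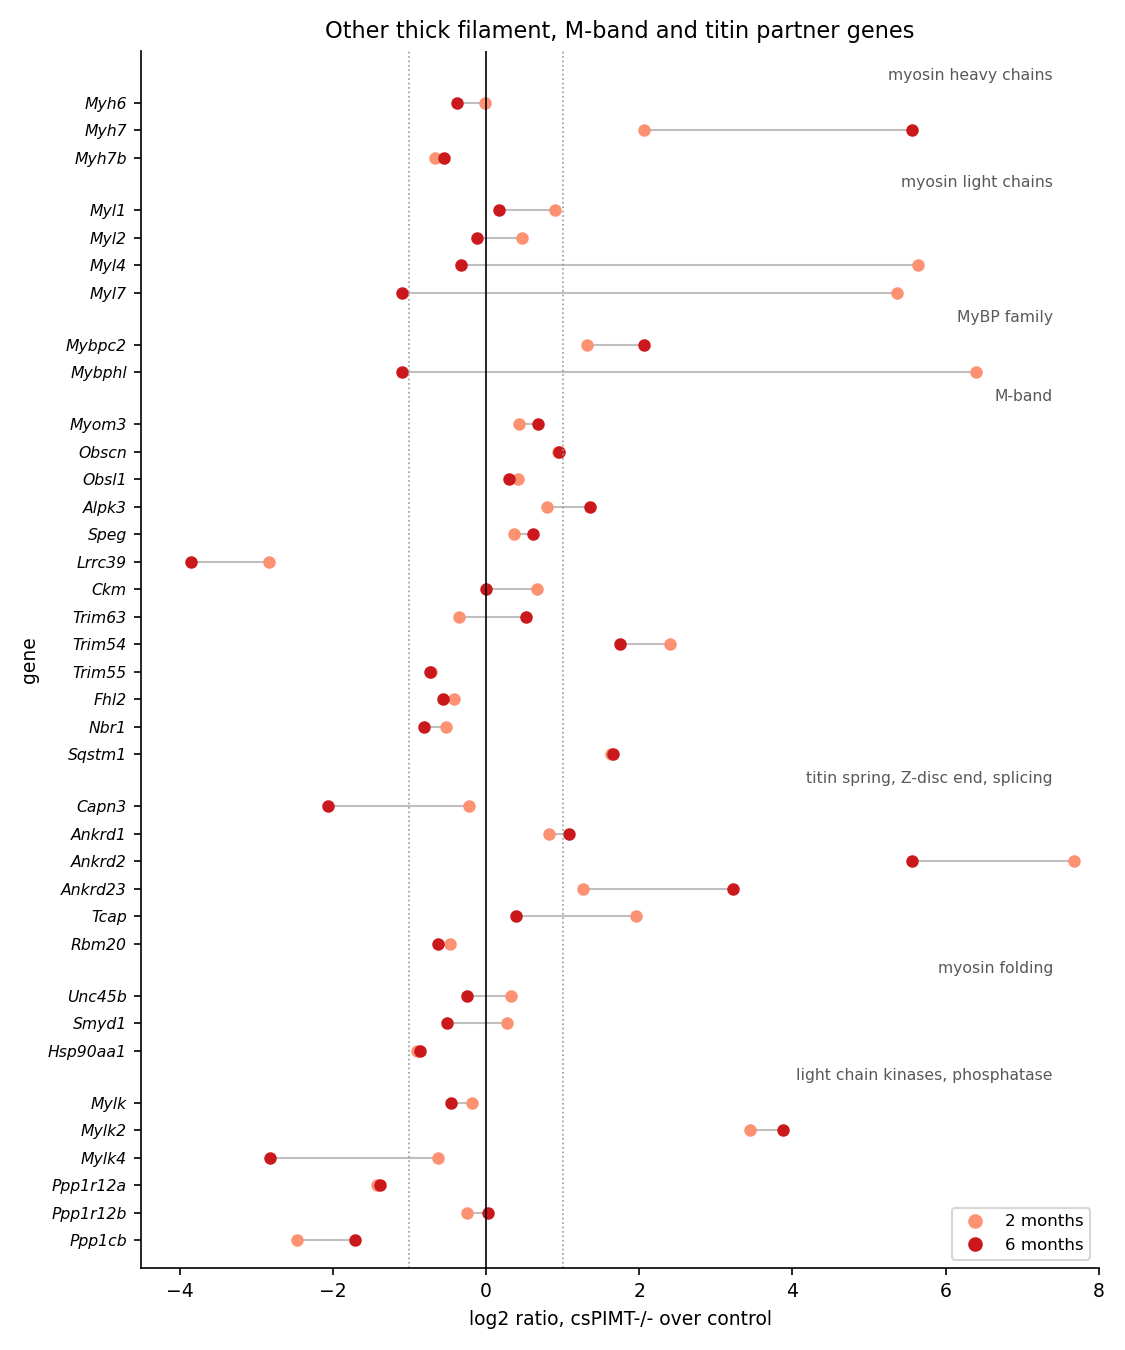
log2 ratios of csPIMT-/- over control (x axis) at 2 months (light) and 6 months (dark) for genes of the thick filament, the M-band and titin partners with sufficient reads at both ages, grouped by role, with dotted lines at 2-fold. Lrrc39, Ppp1cb and Ppp1r12a lie left of the lines at both ages. Myh7, Mybpc2, Trim54, Sqstm1, Ankrd2, Ankrd23 and Mylk2 lie right of them, and the point of Ankrd2 at 2 months rests on 1 control read.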

How the data were processed

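Polyadenylated RNA of 5 pooled hearts per group was made into directional libraries and sequenced by the authors, who trimmed and filtered the reads, aligned them to mm10 with STAR (version not given in the sources used here), counted them per gene with HTSeq 0.6.1p1 and used DESeq2 (version not given), per the labels and the study's methods. The strand setting of the counting is not given in the sources used here. The values the authors deposited are a normalized count signal per gene symbol, not raw counts. In each library 100% of these values were whole multiples of the value of 1 read (0.865 and 0.879 in the controls of 2 and 6 months, 1.23 and 1.04 in their csPIMT-/- counterparts), with a largest deviation of 4.9e-09 reads, and reads were recovered by that division. Reads on genes at 2 months were 39854713 (control) and 29823073 (csPIMT-/-), and at 6 months 40705783 and 36172093.

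Ratios used the deposited scale, a minimum of 10 reads per gene in either library of a pair, and Clopper-Pearson intervals (scipy 1.17.1). log2 ratios used a pseudocount of 0.5 reads. The GC trend was a lowess curve with a span of 0.3 (statsmodels 0.14.6), and 90.7% and 90.6% of genes had a GC value. The genotype difference was fitted with limma 3.58.1 in R 4.3.3 on log2(value + 1), a scale that understates the change of low genes, with age as a covariate and a mean trend, for genes of at least 10 in at least 2 libraries, adjusted after Benjamini and Hochberg, with 1 residual and 4.01 prior degrees of freedom. On the recovered reads, edgeR 4.0.16 called 2521 genes lower and 1637 higher of 14847 and DESeq2 1.42.0 called 2988 and 2190 of 14559. The limma fit and the intervals were tested on simulated data. For the fit, these data gave every gene the same relative spread and held no age effect and no GC trend. They thus differed from these libraries, so that test covers the computation and not the calls made here. Since each group was 1 pool, the error of the genotype difference came from the departure of the 4 libraries from additive effects of genotype and age and, for the most part, from the variance borrowed across genes.

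Named were the 6 genes, Tgs1, the genes of the list of 39 that were past 2-fold in 1 direction at both ages with at least 100 reads in 1 library, Myh6, Myh7, Myl2 and Myom3 whatever their values (Myh7 was also past 2-fold), and the 2 nearest profiles per gene among genes of at least 100 reads in every library. Rbm20, Mybphl and the remaining genes called by limma were added after their values were seen. The members and lists were chosen with earlier results of these data known. Gene coordinates, lengths and GC content came from the GENCODE annotation of GRCm38, and promoters from RefSeq. Ttn also overlaps an annotated antisense gene by 453 exon bases. Proteins and batches were not analysed here.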

Additional observations from a re-analysis of the deposited data

Results flagged for a closer look

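Among the named genes, Myl2, the regulatory light chain that Mylk3 phosphorylates, was higher in csPIMT-/- than in control at 2 months, with a ratio of 1.39, and lower at 6 months, with a ratio of 0.925. Among the 6 genes, the ratio of 6 over 2 months lay on opposite sides of 1 in the genotypes for 3. It was 1.31 in the controls and 0.667 in the csPIMT-/- libraries for Ttn, 1.18 and 0.870 for Mylk3, and 0.944 and 1.25 for Myom1. With 1 library per group and age, none of these differences between ages or genotypes was tested.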

How the results depend on the processing

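Of 96 alternative values of the 12 ratios of the 6 genes, 5 were on the other side of 1. These were the ratio of Myom2 at 6 months with the GC trend (0.880), the GC and length trends (0.938) or the GC trend of the longest coding transcript (0.913) subtracted, and that of Myl3 with the last (0.952 at 2 months and 0.94 at 6 months), a trend added after the data were seen. Past 2-fold at 2 months were 0 of the 6 genes with factors of the 2 libraries alone, with total reads and with each of the 3 trends, and with the control of the other age or both controls summed Mybpc3 was not past it either (1.60 and 1.79) but Ttn was (0.437 and 0.496). At 6 months it was 2 with the control of the other age or both controls summed. With the coding trend 1 of the 6 had a ratio over 1 at 6 months. Genes under 0.5 numbered 3405 at 2 months and 1571, 1508 and 1341 with the GC, the GC and length and the coding trend, and 3794 at 6 months and 1800, 1782 and 1582. Genes over 2 at 2 months were 2616, 1724 with at least 100 reads and 1687 with the whole interval past 2-fold, and at 6 months 2579, 1686 with the whole interval and 1693 with the coding trend. With the control of the other age, 5 genes of the list of 39 were under 0.5 at 2 months and 16 over 2 at 6 months.

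In limma without the mean trend, or with the GC trend subtracted, 0 genes were called in either direction, 0 of the 37 listed genes among them, although 5965 of 14847 and 3492 of 13469 genes were at an unadjusted p below 0.05. Members called were 1 lower in DESeq2 (Ttn) and 1 higher in edgeR and in DESeq2 (Mybpc3), and the cause of the difference between tools was not tested. Over all fits the adjusted p was 0.000774 to 0.333 for Ttn, 0.00295 to 0.518 for Mybpc3 and 0.142 or more for the others. All 72 alternative values kept their direction, but this was largely fixed in advance. Changing the pseudocount, the mean trend or the filter left the estimates almost unchanged. Leaving out a library cannot turn the direction where both csPIMT-/- values lie on 1 side of both controls. The GC trend of the longest coding transcript was not used in a fit. Leaving out 1 library at a time, the log2 differences, with no test, were -1.58 to -1.0 for Ttn, 0.82 to 1.16 for Mybpc3, 0.42 to 0.62 for Myl3, -0.68 to -0.36 for Myom1, 0.08 to 0.53 for Myom2 and -0.64 to -0.40 for Mylk3. For Tgs1 the adjusted p was 0.0654 without the mean trend and 0.167 with the GC trend subtracted. With the median transcript length the mean RPKM was 20379 for Ttn, 4338 for Myl3, 707 for Myom1, 2334 for Myom2 and 326 for Mylk3, and with the coding transcript 3412 for Myl3. The age term compared the genotypes within ages, and beyond it no replicate block could be fitted because each group had 1 library and the labels give no replicate numbers.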
